A study of Mus musculus with 42 samples.

Results

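The core circadian clock of the liver was followed through 10 genes given by name: the activators Arntl (also called Bmal1), Clock and Npas2, the repressors Per1, Per2, Per3, Cry1 and Cry2, and the nuclear receptors Nr1d1 and Nr1d2 (REV-ERBα and REV-ERBβ). They are 10 of the 19756 genes named in any of 6 deposited tables. All 10 were listed in the 4 tables on diet or genotype. The 2 RvE1 tables listed 9 of them, without Npas2, and Npas2 was also under the count filter in the table of KO obese and WT obese mice.

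Whole livers came from 42 male C57BL/6J mice, 7 per group, with 1 library per mouse. WT lean and KO lean mice ate a control diet with 10% of its energy as fat, and WT obese and KO obese mice a diet with 60%, from 6 weeks of age for 15 weeks. These 4 groups received an ethanol and PBS vehicle, whereas the WT obese+RvE1 and KO obese+RvE1 groups ate the 60% diet and received 300 ng of RvE1, an omega-3 derived lipid mediator, on 4 days before harvest on day 5. KO mice lack ChemR23, a receptor for RvE1 encoded by Cmklr1, in the whole body through CRISPR/Cas9 editing, and WT mice were their littermates. All mice had fasted for at least 4 hours. The time of day of harvest is not given in the sources used here, so no clock phase could be assigned to a group; what the tables allow is to ask whether genes that normally peak at opposite times moved in opposite directions.

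In the clock of most tissues, ARNTL pairs with CLOCK or NPAS2, binds E-box sequences and switches on the Per, Cry and Nr1d genes. The PER and CRY proteins then return to block the pair, while the REV-ERB receptors repress Arntl, Clock and Npas2. In mouse liver Arntl and Npas2 transcripts therefore peak at nearly the opposite time to Nr1d1, with the Per transcripts following Nr1d1 and Cry1 later still. Feeding time, glucocorticoids and body temperature also set the liver clock.

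The sequences that carry this loop were read from the RefSeq promoter windows of GRCm38.p6, which held 9 of the 10 genes in 13 windows of 300 bases. Per3 is shown because it rose with diet in both genotypes, Cry1, Per1 and Nr1d1 because they hold E-box letters and varied widely among mice of one group, and Arntl because it holds the element that ROR and REV-ERB receptors bind. Each is the 250 bases before the start, 5′ to 3′ on the gene's strand, except the short Arntl stretch, which begins 20 bases after it. Capitals mark matches on either strand to the E-box CACGTG, the related CACGTT, the ROR/REV-ERB element TAGGTCA or TGGGTCA, the D-box TTATGTAA or TTACGTAA, and the cAMP response element TGACGTCA.
Per3 (chr4:151044666-151044915, minus strand): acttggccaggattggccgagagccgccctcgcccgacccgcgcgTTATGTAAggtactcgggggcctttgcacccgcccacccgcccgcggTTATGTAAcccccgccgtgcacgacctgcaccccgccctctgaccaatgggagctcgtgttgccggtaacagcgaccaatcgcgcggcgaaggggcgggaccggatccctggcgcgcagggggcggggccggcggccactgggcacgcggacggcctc
Cry1 (chr10:85185055-85185304, minus strand): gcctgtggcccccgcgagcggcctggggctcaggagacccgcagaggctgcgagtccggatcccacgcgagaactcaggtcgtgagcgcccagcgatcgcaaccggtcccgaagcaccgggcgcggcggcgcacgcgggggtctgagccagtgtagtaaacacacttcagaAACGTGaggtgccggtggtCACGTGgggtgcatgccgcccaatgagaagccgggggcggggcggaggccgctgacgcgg
Per1 (chr11:69098699-69098948, plus strand): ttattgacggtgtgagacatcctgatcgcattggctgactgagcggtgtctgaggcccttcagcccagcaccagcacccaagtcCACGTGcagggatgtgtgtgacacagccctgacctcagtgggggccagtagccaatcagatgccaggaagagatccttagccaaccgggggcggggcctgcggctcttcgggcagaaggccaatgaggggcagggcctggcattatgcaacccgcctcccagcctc
Nr1d1 (chr11:98775378-98775627, minus strand): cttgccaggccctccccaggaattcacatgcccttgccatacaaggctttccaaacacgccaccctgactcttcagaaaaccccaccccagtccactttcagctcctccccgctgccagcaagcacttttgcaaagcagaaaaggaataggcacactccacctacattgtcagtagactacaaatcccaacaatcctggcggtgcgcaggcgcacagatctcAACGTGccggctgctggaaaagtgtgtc
Arntl (chr7:113207531-113207557, plus strand): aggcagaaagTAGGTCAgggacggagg

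CACGTG was found in 2 of the 13 windows, against 7.15% of 32851 windows of all genes. The related CACGTT stood in 3 of 13, against 4.68%. The D-box TTATGTAA, found in 0.938% of all windows, occurred at 2 places in the Per3 window, and TAGGTCA, found in 2.61%, occurred in 1 of the 2 Arntl windows. TGGGTCA (3.98% of all windows), TTACGTAA (0.119%) and TGACGTCA (1.79%) were in none of the 13. A match of letters is a description of the window and not a measured binding site, and no Per2 window was used here.

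Per kilobase of exon in GENCODE M21, the REV-ERB genes were the most abundant members in WT lean livers, at 654 ± 146 (SD, n = 7) normalized counts per kb for Nr1d2 and 614 ± 439 (SD, n = 7) for Nr1d1. Per1 followed at 172 ± 93.3, Per2 at 153 ± 126, Clock at 149 ± 38.4, Cry2 at 125 ± 15.2 and Cry1 at 88.1 ± 66.7. Per3 had 44.2 ± 15.1, Arntl 13.1 ± 9.50 and Npas2 3.23 ± 3.30. Between neighbours in this order, only the steps from Nr1d1 to Per1, from Per3 to Arntl and from Arntl to Npas2 exceeded the larger of the 2 SDs. Nr1d1 shares 8.55% of its exonic bases with Thra on the opposite strand, and Cry2 shares 4.67% with D930015M05Rik. Since the strand setting of the counting is not given in the sources used here, reads of these overlaps cannot be told apart, and how many reads they hold was not measured.

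The series as a whole had 15992556 to 43841273 reads on listed genes per library. Cmklr1 ran from 40.8 to 114 normalized counts in WT lean mice and from 9.72 to 22.6 in KO lean mice, and from 33.3 to 102 in WT obese against 5.08 to 23.2 in KO obese mice, without overlap. All 6 hepatocyte markers were listed in every table and 0 of them passed in any comparison, while acinar pancreas markers, listed in 1 table, summed to at most 35.2 normalized counts per mouse. Differences were fitted by limma to log2(normalized count + 1) values, and a gene passed at a Benjamini-Hochberg (BH) adjusted p under 0.1 over all genes of its table. In whole liver, fewer cells expressing a gene and less RNA per cell cannot be told apart.

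The first question was what the high fat diet did to the clock in WT livers. Obese livers held less Clock and Npas2 and more Per3 than lean livers. Of 10 members tested, 3 passed, 1 higher and 2 lower, a share of 30.0% against 6.27% of all 14012 genes tested. The same 3 members had no overlap between the groups, as did 1.36% of all genes. The median absolute log2 fold change was 0.73 over the members and 0.18 over all genes.

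Clock, the partner of ARNTL, ran from 1472 to 2897 with a median of 1982 normalized counts in WT lean mice, and from 1024 to 1472 with a median of 1227 in WT obese mice. All 7 obese mice thus lay below every lean mouse, though the highest obese and the lowest lean mouse nearly met. Clock fell with a log2 fold change of -0.70 (SE 0.15, limma adjusted p = 0.0146). Npas2, which can take the place of Clock, ran from 4.57 to 39.4 in lean mice (median 6.38) and from 0 to 4.51 in obese mice (median 3.48). The 2 lean mice whose identifiers open with 8 held 37.5 and 39.4, while the other 5 lean mice held 4.57 to 10.95, so most lean mice stood only slightly above the obese ones. Npas2 fell by 1.93 on the log2 scale (SE 0.55, limma adjusted p = 0.0671).

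Arntl, the partner of both, ran from 34.8 to 202 in lean mice (median 85.4) and from 12.0 to 53.5 in obese mice (median 25.3). Of the obese mice 4 lay below every lean mouse and the other 3 overlapped with them. Its log2 fold change was -1.33 (SE 0.44, unadjusted p = 0.00742, limma adjusted p = 0.109), which did not pass.

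Among the repressors, Per3 ran from 213 to 649 in lean mice (median 437) and from 717 to 1667 in obese mice (median 1083). Every obese mouse stood above every lean one. Per3 rose by 1.48 on the log2 scale (SE 0.24, limma adjusted p = 0.00284), or 2.80-fold, the largest ratio to SE among the 10 genes. Per2, whose protein forms the core of the repressive complex, ran from 361 to 2492 in lean mice (median 653) and from 978 to 1697 in obese mice (median 1157). The 2492 of mouse 19R stood above all 7 obese mice, and the next lean value was 955, below all of them. The log2 fold change was 0.76 (SE 0.32, limma adjusted p = 0.216). Without mouse 19R it was 1.05 and passed (limma adjusted p = 0.0150).

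Cry2 had a log2 fold change of 0.36 (SE 0.13, limma adjusted p = 0.155), with 4 obese mice above every lean one. For Nr1d1, the receptor that represses Arntl, it was -0.78 (SE 0.47, limma adjusted p = 0.397), and for Nr1d2 it was 0.20 (SE 0.18). Nr1d1 was 407 to 3682 in lean mice and 548 to 1356 in obese mice, so the obese values lay inside the wide lean range. The log2 fold changes of Per1 and Cry1 were smaller than their SE.

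Of the 3 calls, those of Per3 and Clock held when any 1 of the 14 mice was left out. Npas2 did not pass without 19R, 8RL, 8R, 27-2L, 27RL or 6RL (limma adjusted p from 0.102 to 0.130). Arntl passed without 19R, 26L, 26R or 22L (0.0752 to 0.0954), as with edgeR (adjusted p = 0.0657) and DESeq2 (adjusted p = 0.00902), and Cry2 passed without 27RL (0.0856) and with DESeq2 (adjusted p = 0.0885).

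The same question in KO livers gave higher Per2, Per3 and Cry2 and lower Npas2 in obese mice. Here 4 of 10 members passed, 3 higher and 1 lower, or 40.0% against 24.1% of all 14213 genes tested. No member was free of overlap, against 2.1% of all genes. The median absolute log2 fold change was 0.50 over the members and 0.25 over all genes.

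Per2 ran from 282 to 1244 normalized counts in KO lean mice (median 509) and from 977 to 1898 in KO obese mice (median 1342). Of the obese mice 5 stood above every lean one. The log2 fold change was 1.31 (SE 0.30, limma adjusted p = 0.0133). Per3 ran from 187 to 983 (median 491) and from 455 to 1416 (median 1057), with a log2 fold change of 1.11 (SE 0.32, limma adjusted p = 0.0305). The lowest obese value of Per3, 455, came from mouse 23L, below the lean median, and the next was 923.

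Cry2, a stable repressor with a shallow rhythm in liver, ran from 571 to 1095 in lean and from 922 to 1395 in obese mice. It rose by 0.46 on the log2 scale (SE 0.14, limma adjusted p = 0.0360). Npas2 ran from 2.27 to 25.1 (median 12.3) and from 0 to 9.30 (median 2.64). The 3 lean mice whose identifiers open with 20 held only 2.27 to 5.93, within the obese range. Npas2 fell by 1.47 on the log2 scale (SE 0.57, limma adjusted p = 0.0901). At counts this low its fold change is understated by the added 1.

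The other members did not pass. Per1, a rapidly induced period gene, had 504 to 1023 in lean and 624 to 1464 in obese mice, with a log2 fold change of 0.49 (SE 0.20, limma adjusted p = 0.101). For Nr1d1 the log2 fold change was -0.72 (SE 0.37, limma adjusted p = 0.187), for Clock -0.30 (SE 0.19), for Cry1 0.51 (SE 0.39) and for Nr1d2 -0.17 (SE 0.16). Arntl had medians of 47.5 in lean and 35.4 in obese mice, with a log2 fold change of -0.14 (SE 0.37).

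Npas2 lost its call without any one of 9 mice, 14-2L, 14RL, 9L, 9RL, 10-2L, 23L, 31L, 31N or 31R (limma adjusted p from 0.118 to 0.173). Clock passed without 20R (0.0794), and Per1 without 14-2L, 20-2L, 20R, 10-2L or 10R (0.0468 to 0.0966). The calls of Per2, Per3 and Cry2 stood without any 1 mouse. Kupffer cell markers moved with these groups: 4 of the 5 tested passed, all lower in obese mice, and their sum ran from 6173 to 14150 in KO lean and from 3533 to 4660 in KO obese mice. Of other markers, 2 of 5 for endothelial and 1 of 5 for stellate cells passed, all lower and none with the number as a random block. For bile duct 0 of 4 passed, and for red cells 0 of 1. Car3, the only tested gene of the 5 on the fat cell list, rose. Its median was 8665 normalized counts in the lean livers of this comparison. Whether fat cells gave these counts was not tested, so its rise is no measure of fat cell content. The part of these marker changes in the clock values was not tested either. In WT mice the same sum was 2220 to 5278 in lean and 2450 to 4523 in obese livers.

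**Figure D1:**
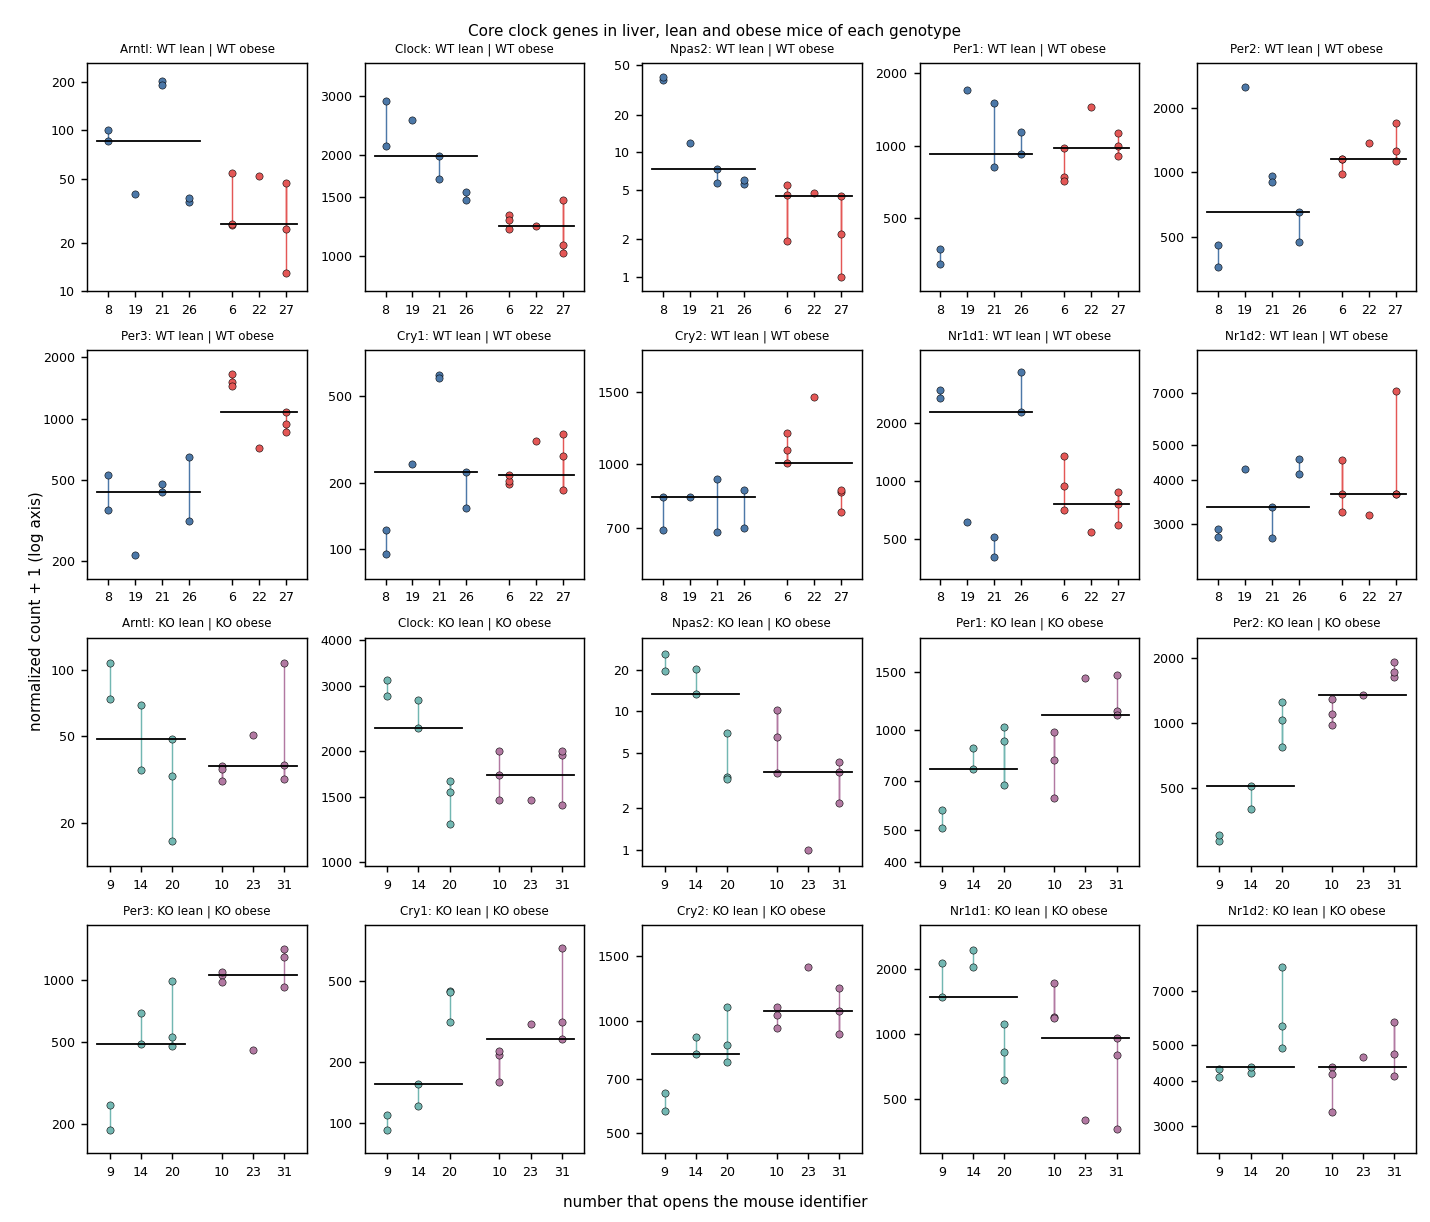
Normalized count + 1 on a log axis for each of the 10 clock genes in every mouse of the 2 diet comparisons, WT in the upper 2 rows and KO in the lower 2. Each point is a mouse, mice whose identifiers open with the same number share a position and are joined, and black lines are group medians; Per3 separated WT lean from WT obese mice in full, while Cry1 and Nr1d1 differed mainly between numbers within the lean groups.

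Whether the diet effect itself differed by genotype was tested as an interaction. No member passed, and 1 of 14093 genes did (0.0071%). At an unadjusted p under 0.05 there were 0 members and 2561 genes. The count over all genes was unstable, at 1839 without mouse 20R, 952 without 22L, 2537 with library quality weights and 930 with DESeq2, with 0 members in each. The largest member value was for Arntl, where the KO change exceeded the WT change by 1.19 on the log2 scale (SE 0.61, unadjusted p = 0.0598, limma adjusted p = 0.295). A difference between the genotypes in the diet response of any clock gene was therefore not shown.

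The 2 arms of the clock were set against each other in each mouse as the mean log2 value of Arntl, Clock and Npas2 minus that of Nr1d1, Nr1d2, Per1, Per2 and Per3, without a test. It ran from -4.40 to -1.95 in WT lean (median -2.86) and from -5.56 to -4.07 in WT obese mice (median -4.83). Of the lean mice 6 lay above every obese mouse. In KO mice it ran from -5.04 to -1.95 in lean (median -3.55) and from -4.99 to -3.81 in obese livers (median -4.50), and 4 lean mice lay above every obese one. The medians of the obese groups were thus lower in both genotypes, with overlap in each. Within the second set the genes did not share a direction, since Nr1d1 had a negative log2 fold change beside the positive ones of Per2 and Per3. Between genotypes and with RvE1 the group means of this measure differed by -0.30 (KO lean against WT lean), 0.37 (KO obese against WT obese), 0.35 (RvE1 in WT) and -0.05 (RvE1 in KO), the last 2 without Npas2. Arntl minus Nr1d1 alone, also taken per mouse without a test, did not share the lower obese medians of both genotypes. Its median was -4.90 in WT lean and -4.97 in WT obese mice. In KO mice it was -4.86 in lean and -4.72 in obese livers, so slightly higher in the obese group.

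**Figure D2:**
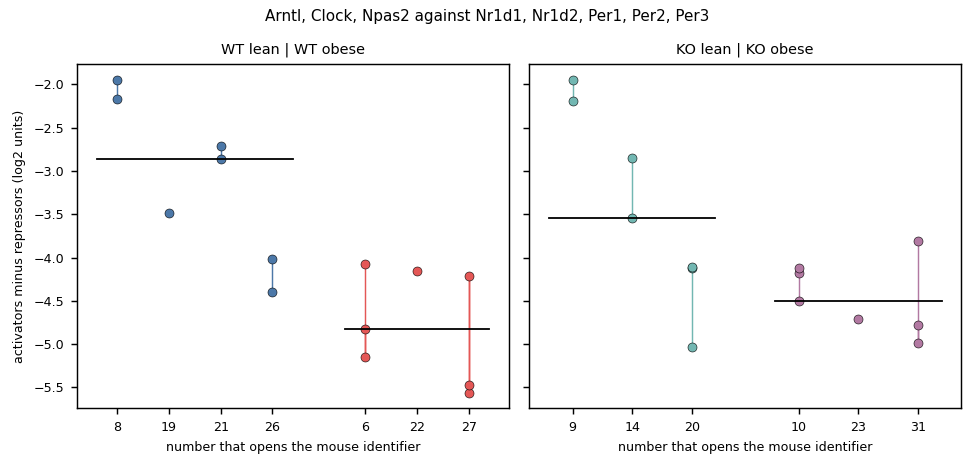
Mean log2(normalized count + 1) of Arntl, Clock and Npas2 minus that of Nr1d1, Nr1d2, Per1, Per2 and Per3 for each mouse, WT on the left and KO on the right. Points are mice, placed by the number that opens their identifier, and black lines are group medians, -2.86 and -4.83 in WT lean and WT obese mice and -3.55 and -4.50 in KO lean and KO obese mice.

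Loss of ChemR23 was asked about first in lean livers. No clock gene passed in KO lean against WT lean mice, against 16.3% of all 13031 genes, and 0 members had an unadjusted p under 0.05. That share rests on treating the mice as independent: with a random block for the identifier number 3 genes passed instead of 2123, and without number 26, 9 or 21 only 8, 15 or 32 did, or 572 without mouse 26R alone. No member was free of overlap, against 0.744% of all genes. Arntl ran from 36.2 to 209 in WT lean (median 88.8) and from 14.0 to 96.8 in KO lean mice (median 43.2), with 3 KO mice below every WT mouse. Its log2 fold change was -0.93 (SE 0.46, limma adjusted p = 0.205; DESeq2 adjusted p = 0.0829). For Per2 it was -0.57 (SE 0.41), for Per1 -0.35 (SE 0.33), for Cry2 -0.18 (SE 0.13) and for Nr1d2 0.32 (SE 0.17), and the other 5 were under their SE. Intervals of 2 SE around these values were wide, from -1.21 to 0.82 for Nr1d1 and from -1.37 to 0.51 for Cry1. Differences within these intervals were therefore not excluded by these mice. Per1 passed without the 2 mice of number 8 (-0.85, limma adjusted p = 0.0470) and Per2 without the 3 of number 20 (-1.20, limma adjusted p = 0.0719). All 5 Kupffer markers tested passed here, higher in KO mice, and 0 of them with the number block (limma adjusted p from 0.138 to 0.160). Their sum was 5624 to 12830 in KO lean and 2320 to 5490 in WT lean mice, and the part of this was not tested.

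In obese livers, 0 of 9 members passed between KO obese and WT obese mice, as did 0.0141% of all 14162 genes. No member was free of overlap, against 0.0282% of all genes. Clock had 1131 to 1627 (median 1346) in WT obese and 1369 to 1931 (median 1669) in KO obese mice, with a log2 fold change of 0.29 (SE 0.11, unadjusted p = 0.0190, limma adjusted p = 1.00). For Per3 it was -0.39 (SE 0.24), and the other 7 were under their SE. The 2 SE intervals were narrower than in lean mice, for example from -0.32 to 0.28 for Per2. Npas2, not tested, was 0 to 4.94 in WT obese and 0 to 9.01 in KO obese mice.

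RvE1 was asked about in each genotype of obese mice. In WT mice 0 of 9 members and 0% of 13085 genes passed with limma, while 3 members and 795 genes had an unadjusted p under 0.05. With DESeq2 25 genes passed, and with limma 49 did without number 6, with 0 members in each. No member was free of overlap, against 0.107% of all genes. Nr1d1 ran from 642 to 1601 (median 899) in WT obese and from 898 to 1675 (median 1348) in WT obese+RvE1 mice, with a log2 fold change of 0.46 (SE 0.19, unadjusted p = 0.0250, limma adjusted p = 0.772). For Per3 the values were 840 to 1956 (median 1271) and 875 to 1095 (median 967), a log2 fold change of -0.43 (SE 0.16, unadjusted p = 0.0191, limma adjusted p = 0.772). All treated mice fell inside the untreated range for Per3, and 1 stood above it for Nr1d1. Per2 had a log2 fold change of -0.26 (SE 0.12, unadjusted p = 0.0428), Arntl 0.37 (SE 0.27), Cry1 -0.26 (SE 0.22), Cry2 -0.14 (SE 0.12) and Clock 0.11 (SE 0.10). Arntl ran only from 40.7 to 52.6 in treated mice against 14.1 to 62.6 in untreated mice.

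In KO mice 0 of 9 members and 0% of 14207 genes passed with limma, while 3 members and 1179 genes had an unadjusted p under 0.05. With DESeq2 17 genes passed, and 0 members. No member was free of overlap, against 0.0211% of all genes. Cry1, the late repressor of the loop, ran from 160 to 727 (median 260) in KO obese and from 106 to 283 (median 137) in KO obese+RvE1 mice, with 5 treated mice below every untreated one. Its log2 fold change was -0.88 (SE 0.28, unadjusted p = 0.00671, limma adjusted p = 0.557). Nr1d1 ran from 363 to 1733 (median 970) and from 902 to 2120 (median 1581), with a log2 fold change of 0.90 (SE 0.32, unadjusted p = 0.0118, limma adjusted p = 0.557). Per2 ran from 988 to 1905 (median 1353) and from 565 to 1404 (median 1055), with a log2 fold change of -0.60 (SE 0.21, unadjusted p = 0.0118, limma adjusted p = 0.557). Without the 3 mice whose identifiers open with 10, Cry1 (-1.26, adjusted p = 0.0841) and Nr1d1 (1.43, adjusted p = 0.0732) passed, as did 329 genes in all. The RvE1 effect did not differ by genotype for any member at an adjusted p under 0.1, nor for any gene (0% of 13061). The largest difference was for Cry1, -0.62 on the log2 scale (SE 0.38, unadjusted p = 0.109).

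**Figure D3:**
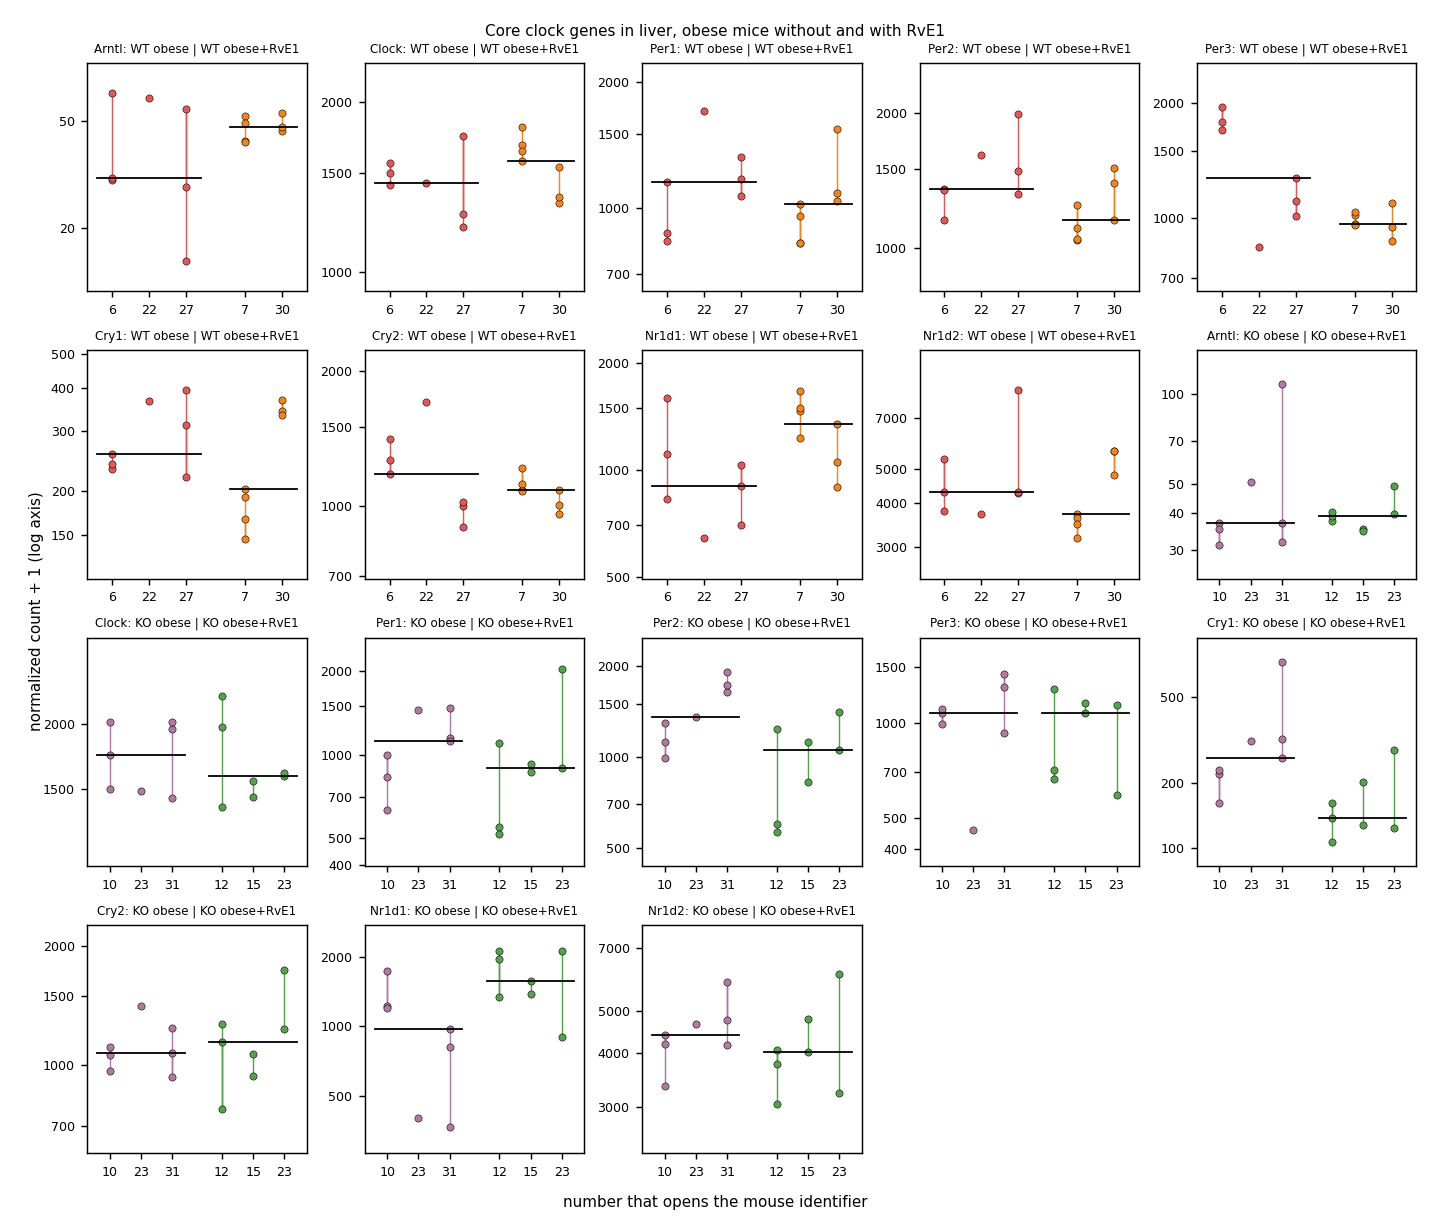
Normalized count + 1 on a log axis for the 9 clock genes listed in the RvE1 tables, in every obese mouse without and with RvE1, WT first and KO after. Points are mice placed by the number that opens their identifier and black lines are group medians; in KO mice the Cry1 median was 260 without and 137 with RvE1 and that of Nr1d1 970 and 1581, while no gene separated the groups in full.

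**Figure D4:**
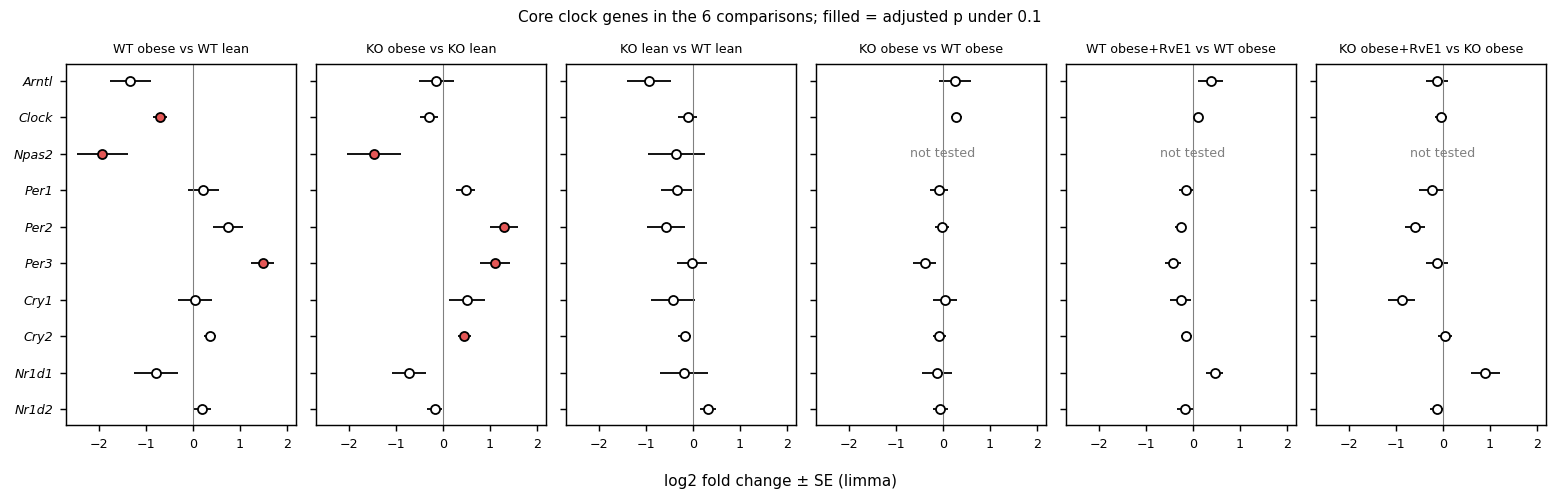
Log2 fold change with its SE from limma for each clock gene in the 6 comparisons, filled where the adjusted p was under 0.1. The filled points are Clock, Npas2 and Per3 in WT diet and Npas2, Per2, Per3 and Cry2 in KO diet, with none in the genotype or RvE1 comparisons.

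Several clock genes varied widely among mice of a group, and in part with the mouse identifiers. These open with a number, for example 21 for mice 21L and 21R, whose meaning is not given in the sources used here. There were 17 such numbers, and all but 23 occurred in 1 group only, so number and group cannot be told apart. In WT lean mice, 21L and 21R held 202 and 191 of Arntl, 619 and 603 of Cry1 and 515 and 407 of Nr1d1. Mice 26L and 26R held 34.8 and 37.2 of Arntl, 154 and 223 of Cry1 and 2297 and 3682 of Nr1d1. Mice 8RL and 8R held 85.4 and 98.9 of Arntl, 122 and 94.7 of Cry1 and 2722 and 2982 of Nr1d1. For Arntl these pairs were close within themselves and apart from one another, though mouse 19R, alone in its number, held 38.9, near number 26. For Cry1 number 21 stood apart, while 26L lay nearer to number 8 than to 26R, and 19R held 245, near 26R. For Nr1d1 number 21 stood apart, while the 2 values of number 26 enclosed those of number 8. Other members were less alike within a number, such as Per1 at 815 and 1510 in number 21 and Per3 at 314 and 649 in number 26.

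KO lean mice also differed by number. Per2 was 282 and 302 in mice 9L and 9RL, 397 and 509 in 14-2L and 14RL, and 774 to 1244 in the 3 mice of number 20. Cry1 was 91.5 to 110 in number 9, 121 to 156 in number 14 and 315 to 444 in number 20, while Nr1d1 was 1487 to 2141, 2053 to 2459 and 612 to 1114. Among WT obese+RvE1 mice, Cry1 was 333 to 367 in the 3 mice of number 30 and 144 to 203 in the 4 of number 7.

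Over all 42 mice, with each group centred on its own mean, 71.2% of the within-group sum of squares of log2 values lay between numbers for the median of the 9 members listed in every table needed, against 47.4% for the median of 13050 genes. The share of degrees of freedom is 33.3%. All 9 members lay above the median of all genes, from 53.4% for Nr1d2 to 84.9% for Per2, and Cry1 and Nr1d1 stood at 81.6% and 81.5%. The within-group SD of log2 values was 0.78 for Nr1d1, 0.73 for Cry1 and 0.71 for Arntl, but 0.30 for Clock and 0.27 for Cry2, with a median of 0.32 over all genes. This measure was chosen after the values had been seen and carries no test.

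**Figure D5:**
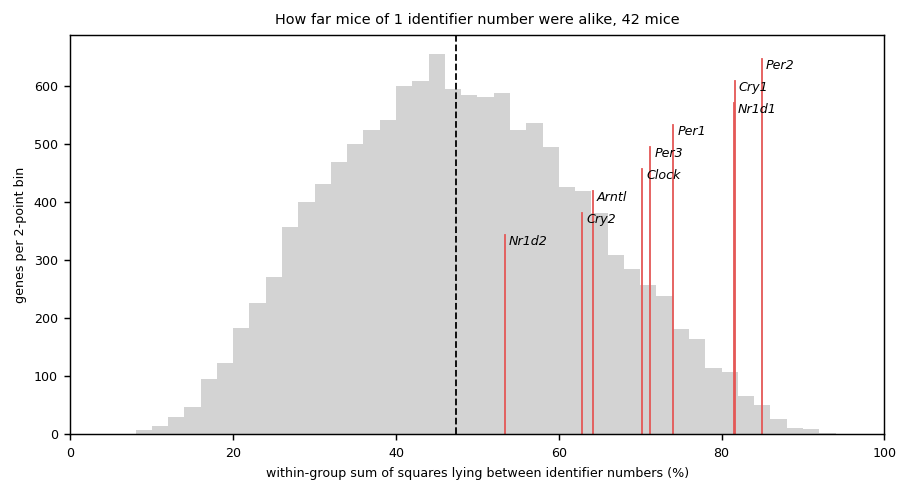
Histogram of the share of each gene's within-group sum of squares that lay between identifier numbers, over 13050 genes and 42 mice, with the median of 47.4% dashed. Red lines mark the 9 clock genes, all right of the dashed line, with Per2, Cry1 and Nr1d1 above 81%.

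Members were also set against each other from mouse to mouse, for 7 pairs. Cry1 and Nr1d1 lay on opposite sides of their group means in 39 of 42 mice, and Per2 and Nr1d1 in 30. Per2 and Cry1 lay on the same side in 33 mice. Arntl and Nr1d1 were on opposite sides in 23 of 42, and on the same side in 19, and Arntl and Nr1d2 on opposite sides in 26. Arntl and Clock shared a side in 25 mice and Per1 and Per2 in 28. Among pairs not counted this way, the Spearman correlation of group-centred log2 values was -0.37 for Nr1d1 and Nr1d2. It was 0.21 for Clock and Nr1d1 and -0.55 for Clock and Per1. Mice of 1 number are not independent, so these counts and correlations describe the 42 mice only.

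Because mice of 1 number were so alike, the diet fits were repeated with the number as a random block. This block uses 1 correlation for all genes, 0.26 in WT and 0.24 in KO mice. All 9 members with a share between numbers lay above the median gene, so the block may correct too little for them. Per3 (adjusted p = 0.0150) and Clock (0.0521) still passed in WT mice with limma and Npas2 did not (0.181). In KO mice Per2 (0.0306), Cry2 (0.0951) and Per3 (0.0994) passed and Npas2 did not (0.135). Of all genes, 1057 passed with this block in KO mice, against 3422 without it. In WT mice, too, fewer genes passed with it than the 878 without it. When each number was reduced to its mean, a fit with few units per group in which 18 genes passed in WT and 2 in KO mice, no member passed: in WT mice Per3 (log2 fold change 1.45) had a limma adjusted p = 0.202, Clock (-0.74) 0.278 and Npas2 (-1.79) 0.503. In KO mice Per2 (1.43) had 0.144, Cry2 (0.57) 0.201, Npas2 (-2.10) 0.250 and Per3 (0.95) 0.339. Leaving out whole numbers left the Per3 and Clock calls of WT mice in place. Npas2 did not pass without 19, 27, 6 or 8 (limma adjusted p from 0.110 to 0.263), while Nr1d1 passed without 21 (-1.41, adjusted p = 0.0624), Arntl without 19, 22 or 26 (0.0416 to 0.0954) and Cry2 without 27 (0.0501).

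In KO mice the choice of numbers mattered more. No member passed without the 3 mice of number 31, where 832 genes did and Per2 had a limma adjusted p = 0.130, Cry2 0.138, Per3 0.208 and Npas2 0.290. Without number 9, where 1532 genes passed, Per2 was the only member to pass, and Per3 (0.115), Cry2 (0.159) and Npas2 (0.320) did not. Npas2 also lost its call without 14 or 23, and Per3 without 10 (0.126). Without number 20, 4199 genes and 8 members passed: besides Per2, Per3, Cry2 and Npas2 these were Clock (-0.68, adjusted p = 0.00341), Cry1 (1.26, 0.0139), Nr1d1 (-1.27, 0.0282) and Per1 (0.65, 0.0572). Per1 (0.0309) and Nr1d1 (0.0639) also passed without number 10.

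The pathway around these genes was described from lists of partners and targets. Of 14 partner genes tested, 0 passed in the WT diet comparison and 6 in KO mice, all higher in obese mice, beside 6.27% and 24.1% of all genes. Bhlhe40, an E-box repressor, was among them, with 2024 ± 1119 (SD, n = 7) normalized counts in KO lean livers and 4593 ± 2730 (SD, n = 7) in KO obese livers (log2 fold change 1.23, SE 0.41, limma adjusted p = 0.0515). So were Ncor1, the corepressor of REV-ERB receptors (0.48), the ubiquitin ligase parts Fbxl21 (0.63) and Btrc (0.34), and the deubiquitinase Usp2 (1.72). None of these 5 passed with a random block for the identifier number. The median log2 fold change of the 14 was 0.27, against -0.0021 over all genes.

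In KO lean against WT lean mice 4 of the 14 partners passed beside 16.3% of all genes, all lower and 0 of them with the number block (limma adjusted p from 0.139 to 0.157): Csnk1e, a kinase that marks PER proteins (-0.40), Ncor1 (-0.60), Bhlhe40 (-1.26) and Rora (-0.50). KO lean mice are in both of these comparisons, so they are not independent. No partner passed in KO obese against WT obese mice or with RvE1 in either genotype.

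Of 12 output genes, which carry the rhythm to metabolism, 4 passed in WT mice on diet, against 6.27% of all genes, and 3 in KO mice, a share near the 24.1% of all genes. With the number block 1 of the 4 (Wee1) and all 3 passed. Wee1, a cell cycle kinase, rose from 212 ± 143 to 488 ± 110 (SD, n = 7 each) in WT mice (log2 fold change 1.49, limma adjusted p = 0.0348) and from 241 ± 191 to 549 ± 161 in KO mice (1.55, 0.0245). Hlf, a D-box factor, rose by 0.56 in WT (0.0903) and 0.72 in KO mice (0.00255). Tef, another D-box factor, rose by 0.69 in WT mice (0.0433), where Pdk4 fell by 2.10 on the log2 scale (0.0870), and Nampt rose by 0.87 in KO mice (0.0236). Dbp, a D-box factor driven by ARNTL, had log2 fold changes of 0.70 (0.217) in WT and -0.08 (0.882) in KO mice. In KO lean mice Nfil3, the D-box repressor, was lower than in WT lean mice (-1.01, 0.0615), the only output gene to pass there and not with the block (0.146), and 0 passed in obese genotype or RvE1 comparisons.

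Lists of other inputs to the liver clock were counted in the same fits. Of all genes, 6.27% passed in WT diet, 24.1% in KO diet and 16.3% in KO lean against WT lean. Of 10 immediate early genes, 2 passed in WT diet, Atf3 (-1.67) and Btg2 (-1.09), and 3 in KO lean against WT lean, Nr4a1 (-2.76), Dusp1 (-1.09) and Atf3 (-1.37), all lower, with 0 in KO diet. Of 7 glucocorticoid targets, Zbtb16 passed in KO diet (2.02) and none in WT diet. Of 11 fasting and feeding genes, Srebf1 (0.96) and Igfbp1 (-1.47) passed in WT diet, Angptl4 (-0.81) in KO diet and Fasn (-1.25) between lean genotypes. The glucocorticoid and feeding counts in KO diet, and the feeding count between lean genotypes, lay below the shares of all genes. The other counts above 0 lay above those shares. With the number block Zbtb16 was the only one of these input genes to pass. None of the 7 heat shock genes passed in any comparison, and the part of these inputs in the clock values was not tested.

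The genes most like 2 members in their mouse-to-mouse pattern were sought over 42 mice among 10918 genes, by the Spearman correlation of group-centred log2 values. For Arntl they were Chka (0.84), St5 (0.81) and Net1 (0.75), and at the opposite end Dbp (-0.73), Hdac11 (-0.71) and Trex1 (-0.68). For Nr1d1 they were Faim (0.78), Rfx5 (0.77) and Nrde2 (0.77), and at the opposite end Gde1 (-0.78), Rcan1 (-0.77) and Cytip (-0.76). Mice of 1 number share whatever made them alike, so these values describe the 42 mice and carry no p.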

How the data were processed

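Liver RNA of 42 mice, 7 per group, was sequenced by the authors as read pairs on a NovaSeq from libraries made with a TruSeq stranded RNA kit, which the labels call both total RNA-Seq and polyA RNA. Per the labels and methods they ran FastQC, aligned to mm10 with Bowtie2, counted with featureCounts, requiring both ends to map, and ran DESeq2 once per comparison. The sources used here give no tool versions, annotation or strand setting. The deposited signal values are reads per gene divided by DESeq2 size factors of the 14 libraries of a table, so groups were compared only within a table. The tables also hold the authors' baseMean, fold changes, SEs and p-values, which were not used. Whole reads were recovered within 0.1 reads for 100% of values, and served the count alternatives and depth. The number of sample columns not used was 0. Depth ran from 15992556 to 43841273 reads. Npas2 and Arntl had the lowest counts of the members, and the part of depth in their spread was not tested.

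Groups came from the sample labels. Tests used limma 3.58.1 in R 4.3.3 (lmFit, eBayes with trend, two-sided) on log2(normalized count + 1), on genes with a mean of at least 5, BH-adjusted over all genes of a table; a gene passed at an adjusted p under 0.1. A fold change on this scale understates that of a low gene. Interactions contrasted the within-table changes of both genotypes. Named genes were the 10 members, Cmklr1, up to 6 passing genes, by smallest adjusted p, per pathway or input list and comparison, and the 3 most and 3 least alike genes for Arntl and Nr1d1; Thra, D930015M05Rik, Car3 and, as an output gene, Dbp were named after their values were seen. One partner gene is not reported here by name. The members and lists were chosen with earlier results of these data known. Alternatives were pseudocounts of 0.5 and 4, no filter, TMM scaling, equal read totals, library quality weights, blocking on the identifier number (duplicateCorrelation), a stricter adjusted p of 0.05, a fold change above 1.5 as well, edgeR 4.0.16, DESeq2 1.42.0, leaving out each mouse or each number and, added after seeing the data, means per number and the block for the lists. The fitting procedure was tested on simulated data. Coordinates and exons came from GENCODE M21 (GRCm38, the same build as mm10), promoters from RefSeq.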

Additional observations from a re-analysis of the deposited data

Results flagged for a closer look

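Of 58 sets of 7 mice (a member in a group), 8 held 1 mouse standing apart from the other 6 by Dixon's test, always as the highest value. The test's rate of about 1 set in 20 holds for independent sets with a normal spread. Here it was run on normalized counts without a log, and the sets share mice. The 8 can therefore not be set against that rate. In KO obese mice it was 31L for both Arntl (107, the next highest being 49.4) and Cry1 (724, the next 315), the same mouse having the lowest Nr1d1 of its group (361). In WT lean mice 19R had 2492 of Per2, against 955 for the next. Nr1d2 was 7119 in WT obese mouse 27RL, against 4558, and 8159 in KO lean mouse 20-2L, against 5628. Per1 was 1544 in WT obese+RvE1 mouse 30R, against 1089, and 2034 in KO obese+RvE1 mouse 23-2L, against 1102. Arntl was 48.2 in KO obese+RvE1 mouse 23RL, against 39.4. Values are normalized counts in the diet tables for vehicle groups and in the RvE1 tables for treated groups.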

How the results depend on the processing

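The count of members passing was 3 for diet in WT mice and became 5 with library quality weights (1605 genes in all, against 878), 5 with DESeq2 (1367) and 0 with means over mice of 1 identifier number; without 1 mouse it was 2 to 4, and without 1 number 2 to 4. For diet in KO mice it was 4 and became 7 with weights (5737 genes in all, against 3422) and 0 with means per number; without 1 mouse it was 3 to 6, and without 1 number 0 to 8. For KO lean against WT lean it was 0 and became 2 with weights (Per2 among them), 1 with DESeq2 (Arntl) and 1 without number 20 (Per2) or number 8 (Per1), and for RvE1 in KO mice 2 without number 10, so 0 to 2. It stayed at 0 in the other 2 comparisons and both interactions under every alternative run. Over 42 fold changes larger than their SE and 1419 alternative values, 1334 kept direction and side of the threshold, 40 fell short of it, 42 newly passed and 3 turned: without number 20, Nr1d2 in KO diet was 0.051 (from -0.28 without another number), and without number 7, Clock was -0.035 (up to 0.22) and Cry1 0.30 (down to -0.68) with RvE1 in WT mice. The cause of these shifts was not tested, except that means per number leave few units. The group differences of the arm measure were also taken with a pseudocount of 4 or without Npas2, where run. They moved by less than 1 SD among mice from their reported values. This limit is too wide to show that the KO diet difference of -1.04 was steady. The SD of the measure was 1.13 for KO lean livers and 0.42 for KO obese livers. In KO diet the log2 fold change was -1.47 for Npas2, -0.30 for Clock and -0.14 for Arntl. The activator side of that difference thus lay mostly in Npas2. No paired analysis was possible because the replicate numbers follow sample order only and, of the identifier numbers, only 23 occurs in 2 groups (KO obese and KO obese+RvE1). Npas2 had the lowest counts of the members, with 0 reads in 1 WT obese and 1 KO obese mouse.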
